A study of Mus musculus with 2 samples.

Results

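The genes described here encode the integrins, the cell surface receptors for the extracellular matrix, and the laminins and collagen IV, the main polymers of basement membranes. They were taken by symbol from the protein-coding genes of mouse build GRCm38 (integrin alpha and beta chains whose names carry a number, the alpha, beta and gamma chains of laminin, and the chains of collagen IV), which gave 38 of 21887 genes. These were 12 integrin alpha, 9 integrin beta, 5 laminin alpha, 3 laminin beta, 3 laminin gamma and 6 collagen IV genes. The data were a list of 6632 intervals enriched in chromatin precipitated with an antibody against ARID4B, a subunit of the SIN3-histone deacetylase complex. The chromatin came from 1 pool of 108 testes of wild type mice (hybrid C57BL6/J and 129/SvEv) aged 1.5 days after birth, and input DNA of the same kind of testes was the control. With 1 library of each kind, no value has a replicate and none was tested between animals. All cell types of the testis were pooled, so no interval can be assigned to a cell type. A gene was counted as marked when an interval overlapped its record, from the first to the last annotated base, or the 1000 bp on either side. The score of an interval is the authors' own value and has no unit. It had a median of 125.0 over the list and a lowest value of 70.02, so a gene without an interval had no enrichment that the authors listed, and the depth that sets this limit is unknown.

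Laminins are trimers of an alpha, a beta and a gamma chain that self-assemble at the cell surface, and collagen IV is a triple helix that forms the second network of the same sheet. Integrins are dimers of an alpha and a beta chain. They bind these networks from the cell side and couple them to actin or, in the case of the dimer of Itga6 and Itgb4, to intermediate filaments. In the testis a basement membrane surrounds each cord of Sertoli and germ cells, and the spermatogonia that rest on it carry the laminin receptor chains Itga6 and Itgb1. The 6 genes of collagen IV are neighbours in pairs that are read away from each other, so each pair shares the stretch between its starts.

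The promoters of 6 members are shown because they carry the main contrast among these genes. Col4a1 and Col4a2 shared the interval with the highest score of any member, and Lamb1 and Itga5 had the best intervals at an annotated start among the laminins and the integrins. Col4a4, a collagen IV gene of another pair, and Itgb1, the beta chain that most integrin alpha chains bind, had no interval. Each sequence runs 5′ to 3′ on the strand of its gene, from 250 bases before the annotated start to the end of the first 50 bases, as given by RefSeq for GRCm38.p6. Capitals mark the GC box, GGGCGG or its other strand CCGCCC, the binding motif of Sp and Klf factors. The windows are chr8:11312777-11313076 (minus strand) for Col4a1, chr8:11312555-11312854 (plus) for Col4a2, chr12:31265043-31265342 (plus) for Lamb1, chr15:103366742-103367041 (minus) for Itga5, chr1:82586800-82587099 (minus) for Col4a4 and chr8:128685404-128685703 (plus) for Itgb1.
Col4a1: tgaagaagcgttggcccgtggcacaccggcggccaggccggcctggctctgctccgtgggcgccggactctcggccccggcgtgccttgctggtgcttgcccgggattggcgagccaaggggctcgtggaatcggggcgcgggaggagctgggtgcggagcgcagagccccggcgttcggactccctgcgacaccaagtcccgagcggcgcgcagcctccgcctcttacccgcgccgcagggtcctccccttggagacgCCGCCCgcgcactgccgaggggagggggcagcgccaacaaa
Col4a2: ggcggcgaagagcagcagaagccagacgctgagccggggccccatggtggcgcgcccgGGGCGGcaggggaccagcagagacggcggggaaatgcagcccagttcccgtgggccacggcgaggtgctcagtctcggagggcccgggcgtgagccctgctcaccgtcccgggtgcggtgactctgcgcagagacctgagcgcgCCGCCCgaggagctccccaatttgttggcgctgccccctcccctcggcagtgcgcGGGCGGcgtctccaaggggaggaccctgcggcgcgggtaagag
Lamb1: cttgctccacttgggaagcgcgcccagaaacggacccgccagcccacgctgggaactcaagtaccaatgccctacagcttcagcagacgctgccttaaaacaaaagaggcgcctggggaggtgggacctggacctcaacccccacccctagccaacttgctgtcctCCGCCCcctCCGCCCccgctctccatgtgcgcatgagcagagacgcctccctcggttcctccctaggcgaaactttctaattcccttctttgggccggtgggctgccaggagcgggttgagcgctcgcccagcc
Itga5: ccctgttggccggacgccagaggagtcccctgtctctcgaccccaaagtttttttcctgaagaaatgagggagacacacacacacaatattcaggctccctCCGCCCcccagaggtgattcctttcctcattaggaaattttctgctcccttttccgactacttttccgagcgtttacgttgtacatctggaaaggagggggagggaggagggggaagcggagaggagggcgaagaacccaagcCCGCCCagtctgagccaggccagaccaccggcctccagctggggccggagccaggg
Col4a4: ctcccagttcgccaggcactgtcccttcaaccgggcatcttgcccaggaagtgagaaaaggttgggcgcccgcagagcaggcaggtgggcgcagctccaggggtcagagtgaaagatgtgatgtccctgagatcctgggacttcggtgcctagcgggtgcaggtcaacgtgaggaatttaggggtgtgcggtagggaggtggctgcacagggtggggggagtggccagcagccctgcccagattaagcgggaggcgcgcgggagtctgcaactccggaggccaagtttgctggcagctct
Itgb1: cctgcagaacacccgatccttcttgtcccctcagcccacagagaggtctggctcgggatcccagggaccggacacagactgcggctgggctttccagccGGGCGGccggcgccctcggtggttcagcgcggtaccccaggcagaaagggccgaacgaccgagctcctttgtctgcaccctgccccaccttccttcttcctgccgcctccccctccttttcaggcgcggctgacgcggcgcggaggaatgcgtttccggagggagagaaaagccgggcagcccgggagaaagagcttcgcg

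An ARID4B interval marked 12 of the 38 members (31.6%, 95% Clopper-Pearson interval 17.5 to 48.7%), beside 30.7% of all 21887 protein-coding genes. The share was thus close to that of genes at large. The members are long genes, with a median record of 76582 bp beside 17169 bp for all protein-coding genes, and a long record has more room for an interval. Of the 13576 protein-coding genes at least as long as the shortest member, Lamb2, 36.7% were marked. The 12 marked members were Col4a1 and Col4a2, the laminin genes Lama1, Lama5, Lamb1, Lamb2 and Lamc1, and the integrin genes Itga1, Itga5, Itga6, Itga9 and Itgb4. By family, 2 of 6 collagen IV genes (33.3%, 4.33 to 77.7%), 5 of 11 laminins (45.5%, 16.7 to 76.6%) and 5 of 21 integrins (23.8%, 8.22 to 47.2%) were marked. These ranges overlap widely, and no difference between the families was tested. All 12 had an interval that reached the record itself, and the nearest unmarked member, Itga2b, had its closest interval 5226 bp away.

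**Figure D1:**
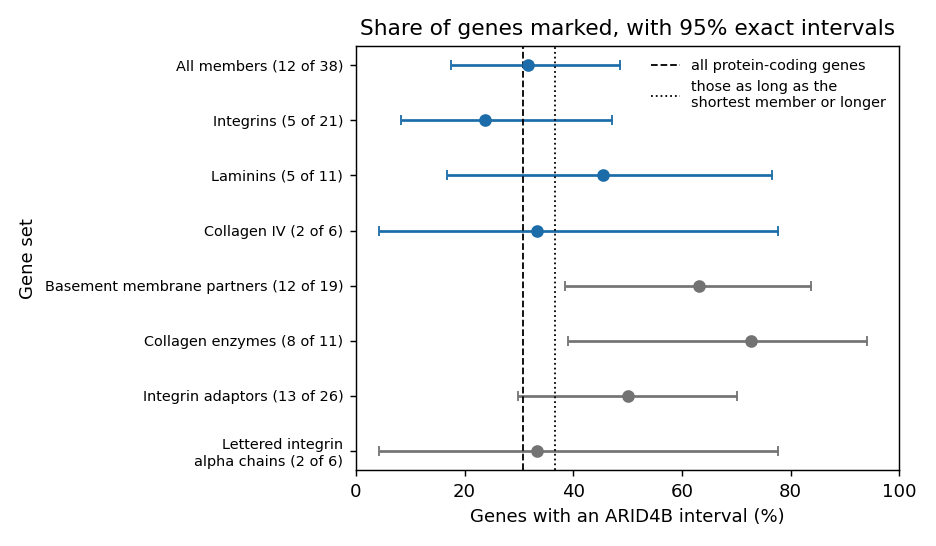
Share of genes with an ARID4B interval in their record or within 1000 bp of it (x axis, %), for the members and their families (blue) and for the lists of partner genes (grey). Bars are 95% Clopper-Pearson intervals that cover counting error only, the dashed line is the share of all protein-coding genes (30.7%) and the dotted line that of genes at least as long as the shortest member (36.7%). The members as a whole lie beside the dashed line, and the enzyme and basement membrane lists lie to its right. The lists were chosen with earlier results of these data known, so their place beside the lines is no test.

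The marked members had scores from 70.07 to 483.13. The best score per gene had a median of 150.3 over the 12 marked members and 131.8 over the 6709 marked protein-coding genes. Counted per distinct interval, the median was 141.1 at members and 125.0 over the whole list. Counting only intervals that scored above the median of the list, 8 of 38 members (21.1%) stayed marked, beside 16.7% of all protein-coding genes. In the counts per gene, Col4a1 and Col4a2 entered with the same interval. Lamb2 entered with the interval near the start of its neighbour Usp19. The 12 distinct intervals at members had a median width of 1340 bp, beside 1084 bp over the whole list. Lamb2 was the sole member with more than 1 interval (8.33% of the 12), close to the 10.7% of marked protein-coding genes with at least 2.

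**Figure D2:**
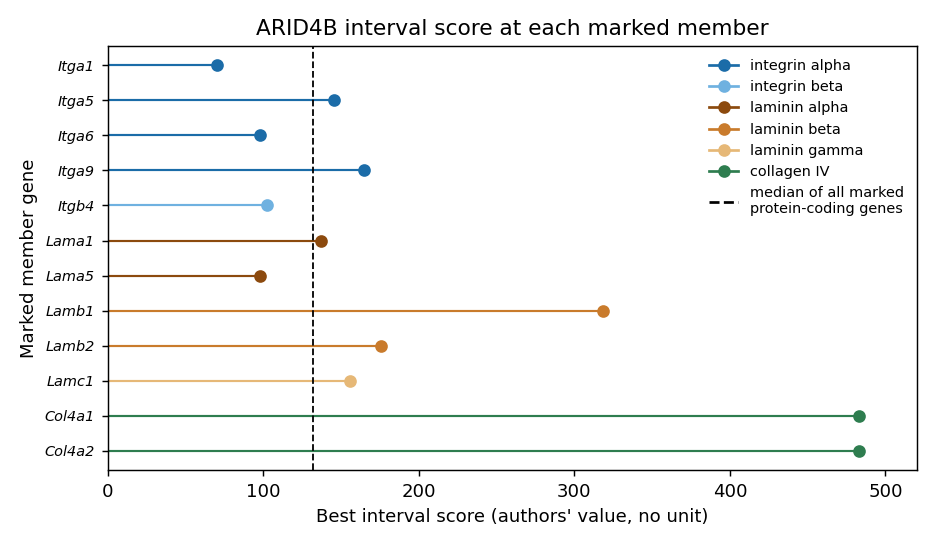
Best score of an ARID4B interval at each of the 12 marked members (x axis, the authors' score without unit), ordered by family; members without an interval are not drawn. The dashed line is the median best score of all marked protein-coding genes (131.8). Col4a1 and Col4a2 share the interval at 483.13, Lamb1 follows with 318.59, and of the integrins Itga5 and Itga9 alone lie right of the line.

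Collagen IV was marked at 1 of its 3 gene pairs. Col4a1 and Col4a2 encode the chains of the collagen IV found in nearly all basement membranes. They shared a single interval at 8:11311773-11314205, 2433 bp wide, with a score of 483.13 and rank 134 of 6632. Their annotated starts lie 21 bp apart on opposite strands, and the interval covered both of them. Its midpoint lay 184 bp inside Col4a2 from its start and 163 bp before the start of Col4a1. The promoter windows printed above overlap by 78 bp, at 8:11312777-11312854, so the mark cannot be assigned to either gene and counts as 1 interval rather than as 2 observations.

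The other collagen IV pairs had none. Col4a3 and Col4a4 encode chains of the collagen IV of the glomerulus and of other specialised basement membranes, and their records overlap by 114 bp on chromosome 1. The closest interval to the pair lay 117.0 kb from Col4a3, at Agfg1, with a score of 164.15. Col4a5 and Col4a6 lie on the X chromosome with annotated starts 1343 bp apart, and the closest interval was 10114.0 kb from Col4a5, at Huwe1 (score 79.0). The X chromosome had 29 of the 6632 intervals, and 3.0% of its 966 protein-coding genes were marked. Male cells carry a single X, and its part in that low count was not tested.

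The marked laminin genes were those of a few chains. Lamb1, the beta chain of the first laminin of the embryo, had the strongest interval of a laminin gene, at 12:31265194-31266726 with a score of 318.59 and rank 473. Its midpoint lay 667 bp inside the gene from the annotated start, and the non-coding gene Gm32899 lay within 1000 bp. Lamc1, which encodes the gamma chain of most laminins, had an interval at 1:153331732-153333054 (score 155.43) whose midpoint was 393 bp inside the higher end of its record. Lama1, the alpha chain that joins Lamb1 and Lamc1 in that first laminin, had 1 at 17:67697050-67698099 (score 137.14), 448 bp inside the lower end. All 3 chains of that trimer were therefore marked. They are among the 5 of 11 marked laminins (45.5%, 16.7 to 76.6%), beside 30.7% of all protein-coding genes. Lama5 and Lamb2, which are not part of that trimer, were marked too. Lama5, the alpha chain of many adult and fetal basement membranes, had an interval at 2:180225231-180226146 with a score of 98.07, below the median of the list, and the midpoint lay 170 bp inside the gene from its start. The non-coding gene Gm52542 lay within 1000 bp of it.

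Lamb2, the beta chain that takes the place of Lamb1 in vessels, glomeruli and synapses, had 2 intervals at opposite ends of its short record of 10684 bp. The interval near the annotated start, 9:108479888-108481242, began just past that start, which is at 9:108479862. It was among the weakest of the list with a score of 71.44 and rank 6508. The stronger one, at 9:108489797-108491697 (score 175.58), lay at the other end. Its midpoint was 10.9 kb from the start of Lamb2 and 71 bp from the annotated start of the neighbour Usp19, a deubiquitinase gene. 

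The remaining 6 laminin genes were unmarked. Among them were Lama3 and Lamb3, an alpha and a beta chain of epithelial laminin, whose closest intervals lay 60.1 and 439.0 kb away. Lama2, the alpha chain of muscle and peripheral nerve, had its closest interval 457.5 kb away, Lama4, an alpha chain of vessels, 259.1 kb away, and Lamc3 133.9 kb away.

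Among the integrin alpha chains, intervals at an end of the record were found at Itga5, Itga6 and Itga9. Itga5, the alpha chain of the fibronectin receptor, had an interval at 15:103366042-103367366 with a score of 145.15, centred 87 bp inside the gene from its annotated start. Itga6, the laminin receptor chain used to enrich spermatogonial stem cells, had a narrow interval of 682 bp at 2:71787036-71787717. It scored 97.97 and lay with its midpoint 490 bp inside the lower end of the record. Itga9, which pairs with Itgb1 and binds tenascin-C and osteopontin, had the best score of the integrins with 165.02, at 9:118606663-118607591. That interval sat at the lower end of its record of 294.3 kb, the upstream end on the plus strand of the gene. The promoter table gives for Itga9 a start 104.6 kb further in, where no interval lay.

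The intervals at Itga1 and Itgb4 lay inside the records. At Itga1, a collagen receptor chain, the interval at 13:115089168-115090531 had a score of 70.07, and 4 intervals in the list scored lower. Its midpoint was 12.1 kb from the start of Itga1 and 308 bp inside Pelo, a ribosome rescue factor gene nested in the Itga1 record, from the start of Pelo. Without intervals that also reach another protein-coding gene outside the set, 11 of 38 members stayed marked, beside 22.4% of all protein-coding genes, and Itga1 was the gene lost. The interval that Col4a1 and Col4a2 share within the set was kept in this count. For genes outside the set, every interval shared with another such gene was dropped. The 22.4% thus follows a stricter rule than the count of members, and the shares are not directly comparable. Itgb4, the beta chain that joins Itga6 in hemidesmosomes, had an interval at 11:116004577-116006036 (score 102.64) whose midpoint was 3.1 kb inside the higher end. No annotated gene other than Itgb4 lay within 1000 bp of it, and whether it falls in an exon or an intron is not known here.

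**Figure D3:**
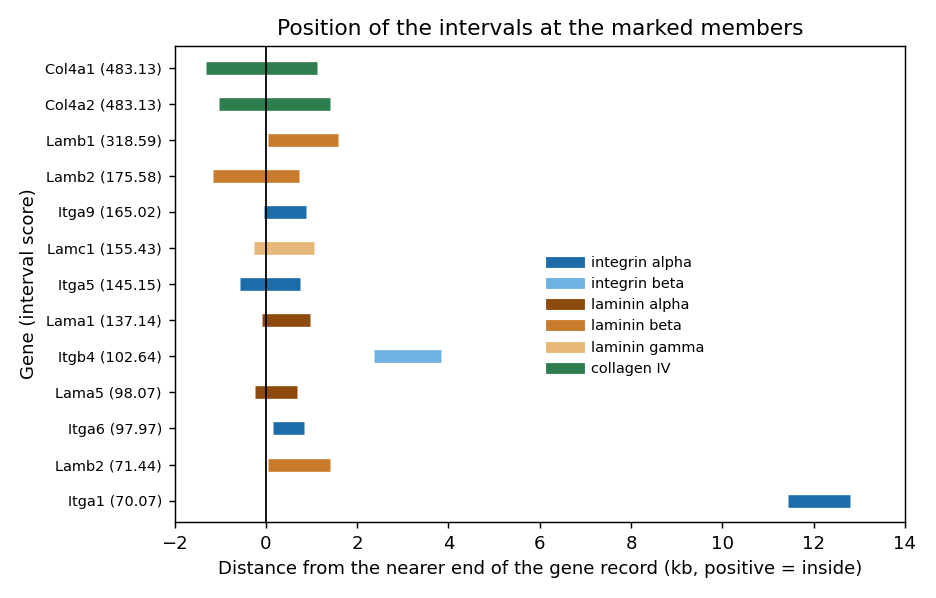
Extent of each interval at the marked members (bars, coloured by family) against the distance from the nearer end of the gene record (x axis, kb, with positive values inside the record), ordered by score, which is given after the gene name. The intervals of all marked members but Itga1 and Itgb4 lie across or just inside a record end. The upper of the Lamb2 bars is at the end of the record away from its start, and the bars of Col4a1 and Col4a2 are the same interval.

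The other 16 integrin genes had no interval. Sorted by the ligand of the alpha chain, 1 of 4 collagen receptors (Itga1, at Pelo), 1 of 3 laminin receptors (Itga6), 1 of 3 receptors for the RGD motif (Itga5) and 1 of the pair of Itga4 and Itga9 were marked. Over all protein-coding genes the share was 30.7%, from which classes of this size cannot be told apart. Unmarked were the collagen receptors Itga2, Itga10 and Itga11, the laminin receptors Itga3 and Itga7, the RGD receptor Itga8, the platelet chain Itga2b and the leukocyte chain Itga4. Of the 9 beta chains, Itgb4 alone had an interval (11.1%, 0.281 to 48.2%), beside 30.7% of all protein-coding genes. None had 1 at an end of its record, which allows a share of up to 33.3%, beside 27.1% of all protein-coding genes. Both ranges include the share of all genes. Itgb1, the partner of most alpha chains, had its closest interval 325.7 kb away, at Nrp1. Itgb3, Itgb5, Itgb6 and Itgb8, which pair with the alpha-V chain, and the leukocyte chains Itgb2, Itgb2l and Itgb7 were unmarked too. Of the 26 unmarked members, 17 had their closest interval over 100 kb away, and 3 had 1 within 10 kb: Itga2b (5.2 kb, at Fam171a2), Itga10 (9.2 kb) and Itga7 (9.5 kb, at Bloc1s1).

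Counted by position, 10 of 38 members (26.3%) had an interval within 1000 bp of either end of the record, beside 27.1% of all protein-coding genes. The promoter table gives a start for 26 members. Of these, 6 (23.1%, 8.97 to 43.6%) had an interval within 1000 bp of a start, namely Col4a1, Col4a2, Itga5, Lama5, Lamb1 and Lamb2, beside 28.0% of the 17492 protein-coding genes with a start in the table. The table has no entry for 12 members, among them the marked genes Itga6, Itgb4, Lama1 and Lamc1.

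Most of the members' promoters under an interval were rich in CpG, the dinucleotide that clusters in the promoters of widely expressed genes. Of 29 promoter windows of 300 bases at 26 members, 6 (20.7%, 7.99 to 39.7%) lay under an interval, beside 23.9% of 21263 windows of all protein-coding genes. The 6 windows under an interval held 37 CpG at Col4a1, 33 at Col4a2, 24 at Lama5, 18 at Lamb1, 13 at Itga5 and 4 at Lamb2, with quartiles of 14.2 and 30.8. The 23 windows under no interval held between 1 and 27, with quartiles of 5.0 and 13.5. The ranges overlap, since Itgb1 with 27, the busier of the Itga3 windows with 24 and Itga8 with 23 had no interval and Lamb2 had 1 with 4. At Lamb2 the interval reached the last 24 bases of the window alone, and at Lamb1 the last 149. Over all protein-coding genes the medians were 26.0 under an interval, 7.0 under none and 13.0 over all windows. The highest member values, at Col4a1 and Col4a2, come from windows that overlap by 78 bp under 1 interval and are not separate observations.

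**Figure D4:**
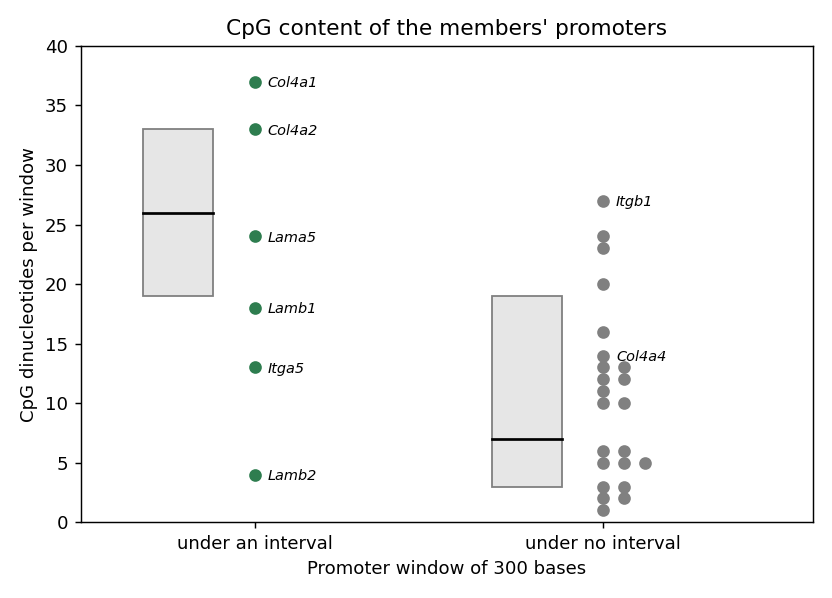
CpG dinucleotides in each 300-base promoter window of the members (y axis), for windows under an ARID4B interval (green, all named) and under none (grey, with Itgb1 and Col4a4 named). Dots with the same value are set side by side, and the grey boxes show the quartiles and the median of all protein-coding promoters of the same class. Col4a1 and Col4a2 have the most CpG of the members and Lamb2 is the low point among those under an interval.

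The GC box marked in the printed sequences was present in 5 of the 6 windows under an interval (83.3%) and in 9 of the 23 under none (39.1%), beside 75.9% and 36.8% of the windows of all protein-coding genes in the same classes and 46.2% of all. Col4a2 held 3, Lamb1 and Itga5 2 each, and Col4a1 and Itgb1 1 each, while Col4a4 held none. The last GC box of Col4a2 and the GC box of Col4a1 are the same bases, read on opposite strands in the stretch that both windows share. The CCAAT box (CCAAT or ATTGG) occurred in 3 of 6 and 3 of 23 windows, beside 34.5% and 39.3% of all windows in these classes. The CCAAT box of Lamb1 lay in the part of its window that the interval did not reach. The TATA word TATAAA or TTTATA was in none of the 29, beside 12.6% of all. The E2F words TTTCCCGC and TTTGGCGC, searched because ARID4B binds the retinoblastoma protein, were in none on either strand, beside 1.41% and 0.635% of all windows. A match to these letters shows no binding, and their absence from a window of 300 bases shows no lack of it.

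Among genes whose products act with these chains, basement membrane partners, collagen enzymes and integrin adaptors had intervals at larger shares than the members. The difference was not tested. The integrin alpha genes named by a letter (33.3%) were close to the members (31.6%). Collagens other than collagen IV (21.1%) and the netrins (33.3%), taken by symbol and described below, had no such larger share. The lists were chosen with earlier results of these data known, so their ranges describe the lists and cannot serve as a test. Of 19 partners of laminin and collagen IV in basement membranes 12 were marked (63.2%, 38.4 to 83.7%), beside 30.7% of all protein-coding genes. With scores above the median of the list 5 of the 19 (26.3%) were, beside 8 of the 38 members and 16.7% of all protein-coding genes. The best were Smoc2 (score 279.29), a secreted calcium-binding matrix protein, Dag1 (231.79), the laminin receptor dystroglycan, Agrn (174.5), the proteoglycan agrin, and Smoc1 (131.83). The cross-linkers of the laminin and collagen IV networks, Nid1 and Nid2, were unmarked. Of 11 enzymes and chaperones of collagen assembly 8 were marked (72.7%, 39.0 to 94.0%), beside the same 30.7%. Best among them was Serpinh1, the collagen chaperone HSP47 (289.75), followed by Mia3, which exports collagen from the endoplasmic reticulum (270.53), the prolyl hydroxylase P4ha1 (147.25) and the lysyl hydroxylase Plod3 (140.1, shared with Znhit1). Pxdn, the peroxidase that crosslinks collagen IV, was marked with 118.72.

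Inside the cell, 13 of 26 integrin adaptors and signalling proteins were marked (95% interval of the share 29.9 to 70.1%, which includes the 30.7% of all protein-coding genes). They were led by Zyx, the focal adhesion protein zyxin (305.58), the talin gene Tln2 (242.98), the tensin gene Tns3 (202.73) and Ilk, the integrin-linked kinase (194.33, shared with Taf10 and Tpp1). The midpoint of that Ilk interval lay 7415.5 bp from the annotated start of Ilk, a distance longer than its record of 6.3 kb. Ilk had 2 intervals, and the other, which scored no higher, lay within 1000 bp of its start. Tln1, the talin of most cells, had 191.34 in an interval shared with Creb3, whereas the kindlin genes Fermt1, Fermt2 and Fermt3 and the kinase genes Ptk2 and Src had none. Of the 6 integrin alpha genes named by a letter, 2 were marked (33.3%, near the 30.7% of all protein-coding genes). The interval in Itgae (340.65) also reached Haspin, and that of Itgav, the alpha-V chain (102.87), had its midpoint 318 bp from the annotated start of Itgav, which lies inside the gene record, over 1000 bp from its ends. Over these 4 lists 35 of 62 genes (56.5%) had an interval, beside 30.7% of all protein-coding genes and 36.7% of those at least as long as Lamb2, and 27 of the 62 (43.5%) had 1 within 1000 bp of an end of the record, beside 27.1% of all protein-coding genes.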

How the data were processed

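ARID4B ChIP DNA from 1 pool of 108 testes and input DNA of the same kind of testes were sequenced. The submitters' processing notes name BWA, MACS and build mm9, with no version or parameter. What the authors deposited is a single list of enriched intervals from the ChIP, each with a score, in which the input served as control. Reads and coverage were not analysed here, so the depth is unknown. The list's name calls the score a p-value, but its values lie above 70.02, so the score served only to describe and rank intervals within the list.

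The list is named for mm10, and positions were read as GRCm38: 70.0% of intervals lay within 1 kb of an annotated protein-coding start in place, 16.8% when moved by 2 kb and 4.33% by 5 kb. Positions count from 1. Gene records and promoter windows came from RefSeq tables of GRCm38.p6, which give no exons, and a start for 26 of the 38 members. Overlap of at least 1 bp counted. Shares have 95% Clopper-Pearson intervals, and a share of 0 is given with the limit that 3 genes would make. Intervals and limits cover counting error only, and genes are not replicates. No test between groups was possible with 1 ChIP library.

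The members, the lists and the ligand classes were chosen with earlier results of these data known. Every member but 1, which is not reported here, was named, and up to 4 best-scoring genes of each list. Nid1, Nid2, Pxdn, Tln1, Itgav, the kindlin genes, Ptk2, Src and the genes of the closing section were chosen for naming after their values were seen. Alternatives tried were flanks of 0, 500 bp and 5 kb, midpoints, record ends, annotated starts, scores above the median, and leaving out intervals shared with a protein-coding gene outside the set. Python 3.11.15, pandas 2.3.3 and scipy 1.17.1 were used, and the overlap step was tested on simulated data.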

Additional observations from a re-analysis of the deposited data

How the results depend on the processing

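The count of 12 marked members was the same with flanks of 0, 500 bp or 5 kb and with midpoints, was 11 without intervals shared with a protein-coding gene outside the set, 10 at record ends and 8 with scores above the median. Within 1 kb of an annotated start it was 6, where 26 of 38 members have a start in the table. Integrins had 3 of 21 at record ends and 2 above the median score, against 5, and laminins had 5 and 4 of 11, against 5. At annotated starts, which the table gives for 16 integrins and 5 laminins, 1 and 3 of these were marked. The median best score of marked members was 170.3 above the median score, 160.23 at record ends, 231.87 at annotated starts and 145.15 without intervals shared outside the set, against 150.29. In each of these medians the interval of Col4a1 and Col4a2 entered for both genes. The value at annotated starts rests on 6 genes and is raised by that, and no such median was taken over all genes. Col4a1 and Col4a2 were both marked under every alternative run, except that leaving out shared intervals could not change this, since sharing within the set was kept. The partner lists had 20 of 62 genes with scores above the median, against 35, between 27 and 36 under the other alternatives over all 62, and 24 of the 44 with an annotated start. The depth of the libraries is unknown, so what a missing interval means is limited by it. No paired analysis was possible because each group has 1 library.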

Other observations

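Collagens other than collagen IV, taken by symbol after the data were examined, were marked at 8 of 38 genes (21.1%, 9.55 to 37.3%), beside 30.7% of all protein-coding genes. Of these 8, Col15a1 and Col18a1 also stand among the basement membrane partners. The best were the transmembrane collagen Col13a1 (score 222.92), Col27a1 (204.55) and Col5a1 (166.29), a chain that nucleates collagen fibrils. Fn1, the gene of fibronectin, the ligand of the Itga5 receptor, was marked with 90.19. Of 6 netrin genes, relatives of the laminins chosen in the same way, 2 were marked (33.3%, 4.33 to 77.7%), near the 30.7% of all protein-coding genes. They were Ntn3 (266.74, shared with Tbc1d24) and Ntn4 (115.59), which binds laminin and stands in the list of basement membrane partners too.

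The promoter of Lamb2 was unusual among those under an interval. It held 4 CpG in 300 bases, and of the 6035 protein-coding promoter windows with at most 4 CpG, 23 (0.381%) lay under an interval, beside 58.0% of the 3283 windows with 30 or more. The interval scored 71.44, overlapped the last 24 bases of the window and had its midpoint 703 bp inside the gene from the annotated start.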
